A study of Saccharomyces cerevisiae S288C with 8 samples.

Results

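The 8 lysine biosynthesis genes LYS20, LYS21, LYS4, LYS12, LYS2, LYS9, LYS1 and LYS14 of Saccharomyces cerevisiae were examined as sites of Cse4 enrichment, out of 6002 protein-coding genes of build R64. Cse4 is the budding yeast CENP-A, the histone H3 variant of centromeric nucleosomes. The set was chosen by the fold enrichment of the peaks upstream of LYS21 and LYS4 in the cdc7-7 GAL-FLAG-CSE4 list, so the values of those peaks are given as a description and carry no test. The other 6 genes were taken because they belong to the same pathway. For each gene, any deposited peak was recorded that covers at least 1 bp of the coding sequence or of the 1000 bp upstream of the start codon.

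ChIP-seq of Cse4 was performed in 4 strains, each with 1 ChIP library and 1 input library, which gave 4 peak lists. In the wild type strain with endogenous Cse4 (labelled CSE4-HA) and the cdc7-7 strain with endogenous Cse4 (CSE4-HA cdc7-7), the tagged protein was made from its own promoter in glucose medium. In the wild type GAL-FLAG-CSE4 strain (labelled GAL-CSE4-FLAG) and the cdc7-7 GAL-FLAG-CSE4 strain (GAL-CSE4-FLAG cdc7-7), an integrated copy under the galactose-inducible promoter was induced for 1.75 hr in raffinose/galactose. The cdc7-7 allele is a temperature-sensitive allele of the catalytic subunit of the Dbf4-dependent kinase (DDK), and the cultures grew at its permissive temperature. The endogenous strains are labelled with an HA tag although every precipitation used an anti-FLAG gel, and the study names their protein Flag-Cse4. Expression of Cse4 and medium changed together between the endogenous and the overexpressing strains, so they cannot be told apart. With 1 library a strain there is no replicate error to judge differences by, and the intervals given are 95% Poisson intervals that cover the counting error of the pileup only.

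Yeast makes lysine from 2-oxoglutarate and acetyl-CoA through α-aminoadipate. Homocitrate synthase (LYS20 and LYS21) opens the pathway, homoaconitase (LYS4) and homo-isocitrate dehydrogenase (LYS12) lead to α-ketoadipate, and α-aminoadipate reductase (LYS2) and the saccharopine dehydrogenases (LYS9 and LYS1) complete the route to lysine. LYS14 encodes a zinc cluster activator that raises transcription of several of these genes when the intermediate α-aminoadipate semialdehyde accumulates, and lysine itself inhibits homocitrate synthase.

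In the cdc7-7 GAL-FLAG-CSE4 list, 6 of the 8 genes held a peak, at 7 peaks in all, and LYS20 and LYS1 held none under the rule. By the same rule 55.9% of all coding genes held a peak in this list, so most genes of any kind did. In the wild type endogenous list 1 of 8 genes held a peak (LYS20, at its 3′ end), where 20.2% of all genes did. None of the 8 held a peak in the cdc7-7 endogenous list, where 4.75% of all genes did, and none in the wild type GAL-FLAG-CSE4 list, where 1.05% did. At a fold enrichment of 2 or more, 2 of 8 genes held a peak (LYS21 and LYS4, those the genes were chosen for) against 2.82% of all genes. A summit within the 1000 bp upstream was found at 5 of 8 (LYS21, LYS4, LYS2, LYS9 and LYS14), against 40.6% of all genes. LYS21 and LYS4 were chosen for such a peak, so nothing is read from that count, and of the other 6 genes 3 had an upstream summit.

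**Figure D1:**
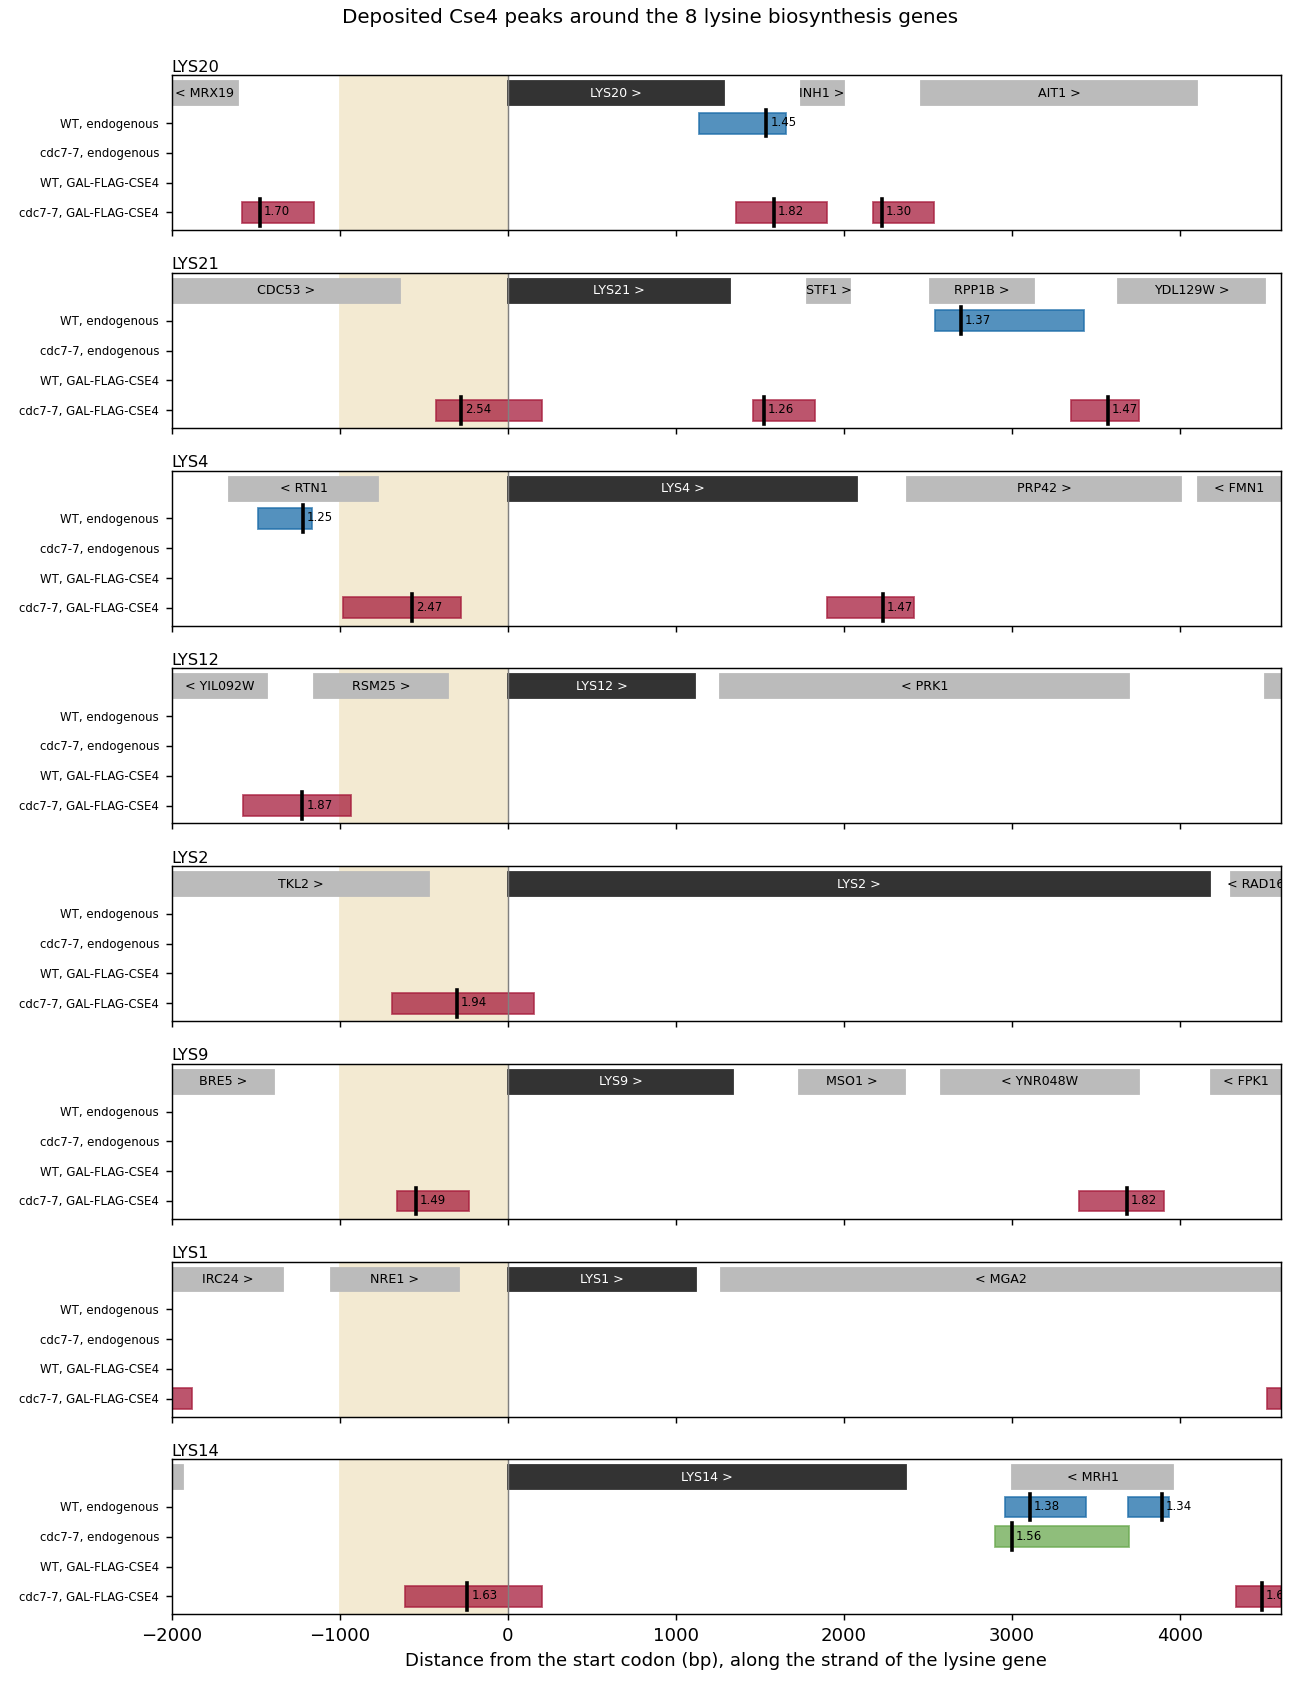
Deposited peaks around the 8 genes, each drawn from its start codon (0) in the direction of its own transcription, with distance in bp on the x axis. Dark boxes are the lysine genes, grey boxes the neighbors, the shaded band is the 1000 bp upstream, coloured bars are peaks of the list named at the left, black ticks are summits and the number beside a tick is the fold enrichment. The 2.54 and 2.47 peaks of LYS21 and LYS4 lie upstream of the start codons in the cdc7-7 GAL-FLAG-CSE4 row, and the other rows are empty there except for a 1.25 peak inside RTN1.

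The DNA under 4 of the summits is given first. The 4 stretches below are 121 bases each from the R64 reference, centred on the summit of a cdc7-7 GAL-FLAG-CSE4 peak (base 61) and written 5′ to 3′ on the strand of the lysine gene. They are shown because the LYS21 and LYS4 summits are the ones the genes were chosen for, and those of LYS2 and LYS14 are the other summits nearest to their start codons. Capitals mark a match to TCCNNNGGA, the palindromic site of the Lys14 zinc cluster, or to TGANTCA, the site of the general amino acid activator Gcn4. Neither motif occurs in the LYS4 and LYS2 stretches.
LYS21, chrIV:227054-227174, plus strand: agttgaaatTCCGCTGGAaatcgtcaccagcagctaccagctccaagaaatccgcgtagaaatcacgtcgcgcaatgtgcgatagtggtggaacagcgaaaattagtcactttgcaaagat
LYS4, chrIV:930498-930618, plus strand: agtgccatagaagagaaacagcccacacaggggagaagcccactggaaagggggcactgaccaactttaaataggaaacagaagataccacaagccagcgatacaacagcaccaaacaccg
LYS2, chrII:474170-474290, minus strand: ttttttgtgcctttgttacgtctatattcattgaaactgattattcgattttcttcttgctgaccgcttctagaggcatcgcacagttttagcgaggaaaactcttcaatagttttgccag
LYS14, chrIV:512289-512409, minus strand: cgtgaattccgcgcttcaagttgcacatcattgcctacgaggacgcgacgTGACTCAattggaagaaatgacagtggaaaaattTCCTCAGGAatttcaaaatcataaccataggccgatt

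The genes lie mostly apart. LYS20, LYS21, LYS4 and LYS14 are on chromosome IV, LYS12 and LYS1 on chromosome IX, LYS2 on II and LYS9 on XIV. The gap between the start codon and the next coding gene upstream was 289 bp at LYS1, 357 bp at LYS12, 465 bp at LYS2, 641 bp at LYS21, 771 bp at LYS4, 1391 bp at LYS9, 1603 bp at LYS20 and 1933 bp at LYS14. The next gene upstream is read in the same direction at 6 of the 8, and away from the lysine gene at LYS20 (MRX19) and LYS4 (RTN1, a reticulon). No gap was shared by 2 lysine genes, so the peaks are separate sites. The 1000 bp upstream of every gene consist of 50-mers found once in the genome, whereas 79.1% of the 50-mers over LYS20 and its upstream region and 79.4% of those over LYS21 and its upstream region are unique. LYS20 and LYS21 are paralogs, and reads with more than 1 position were dropped by the authors, so coverage over the stretches of coding sequence that the pair share may be reduced. This was not tested.

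LYS21 (YDL131W) encodes a homocitrate synthase and is at IV, 227393 to 228715, on the plus strand. Its peak in the cdc7-7 GAL-FLAG-CSE4 list ran from 226965 to 227594, a width of 630 bp, with the summit at 227114, between CDC53 (the SCF cullin) and LYS21 and 279 bp upstream of the LYS21 start codon. The fold enrichment was 2.54 (95% interval 2.27 to 2.84), from 307 fragments at the summit (the pileup) over an expected 120.1 (the background). This was the highest fold enrichment of the 2188 peaks outside the centromeres, but the peak stood only at rank 107 by pileup and at rank 11 by p. The background under it was the lowest that occurs in the list, since MACS lets the local background fall no lower than the genome-wide mean. In all, 148 peaks of the list (6.72% of those solved) had that same floor background, within 0.01 fragments, LYS9 among them. The wild type endogenous list had its nearest peak 2543 bp downstream of the LYS21 start codon, in RPP1B, and the cdc7-7 endogenous and wild type GAL-FLAG-CSE4 lists had none within 59204 bp.

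LYS20 (YDL182W), the paralog of LYS21, is at IV, 133437 to 134723, on the plus strand, and differed from it. Its single peak under the rule was in the wild type endogenous list, at 134574 to 135093, with a fold enrichment of 1.45 (1.27 to 1.63), a pileup of 256 and a background of 176.8. Only 150 of its 520 bp lay in the gene, and its summit at 134976 was 253 bp past the stop codon and 203 bp upstream of INH1, which encodes an inhibitor of the mitochondrial ATP hydrolase. The cdc7-7 GAL-FLAG-CSE4 list held a peak at the same place, with a fold enrichment of 1.82, that began 69 bp past the end of LYS20 and so fell outside the rule. The peaks of the 2 lists overlapped by 301 bp and their summits were 43 bp apart. Another peak of that list lay in the 1603 bp gap upstream of LYS20, with a fold enrichment of 1.70, a pileup of 224 and a background of 131.6. Its near edge was 1153 bp and its summit 1477 bp upstream of the LYS20 start codon, 127 bp upstream of MRX19. LYS20 was thus the gene just outside the rule, with a peak 152 bp beyond the upstream window and another 69 bp past the end of the gene.

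LYS4 (YDR234W) encodes homoaconitase and is at IV, 931129 to 933210, on the plus strand. Its upstream peak in the cdc7-7 GAL-FLAG-CSE4 list ran from 930148 to 930848, 701 bp, with the summit at 930558. The summit was 571 bp upstream of the LYS4 start codon but 201 bp upstream of that of RTN1, so the peak was nearer to RTN1. The fold enrichment was 2.47 (2.23 to 2.72), from a pileup of 407 over a background of 164.4, which ranked 3 by fold, 9 by pileup and 6 by p. The intervals of LYS4 and LYS21 overlapped, and LYS4 had more fragments at the summit but also the higher background. A lower peak at the 3′ end of LYS4, from 933027 to 933547, had a fold enrichment of 1.47 (1.28 to 1.68), and its summit was 150 bp past the end of LYS4 and 144 bp upstream of PRP42, a U1 snRNP gene. In the wild type endogenous list, the nearest peak had a fold enrichment of 1.25 with its summit inside RTN1, 1220 bp upstream of LYS4. The other lists had no peak within 59936 bp.

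LYS12 (YIL094C) encodes homo-isocitrate dehydrogenase and is at IX, 186517 to 187632, on the minus strand. Its peak, at 188563 to 189209 in the cdc7-7 GAL-FLAG-CSE4 list, counted by 70 of its 647 bp and was the one just inside the 1000 bp limit. The fold enrichment was 1.87 (1.65 to 2.10), with a pileup of 265 and a background of 141.5. Its summit was 1224 bp upstream of LYS12, beyond the whole of RSM25, and 72 bp upstream of the RSM25 start codon. The 357 bp between LYS12 and RSM25 held no summit in any list, and the other lists had no peak within 14445 bp of the LYS12 start codon.

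LYS2 (YBR115C) encodes the large α-aminoadipate reductase and is at II, 469748 to 473926, on the minus strand. A peak of 846 bp, the widest of the 7, ran from 473769 to 474614 in the cdc7-7 GAL-FLAG-CSE4 list. Its summit at 474230 lay 304 bp upstream of the start codon, between LYS2 and the transketolase gene TKL2. The fold enrichment was 1.94 (1.72 to 2.18), from a pileup of 290 and a background of 149, at rank 112 of 2188. No other list had a peak within 7463 bp.

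LYS9 (YNR050C), at XIV, 714048 to 715388 on the minus strand, and LYS1 (YIR034C), at IX, 419615 to 420736 on the minus strand, encode the saccharopine dehydrogenases of the last steps. The LYS9 peak, at 715619 to 716045, was the narrowest of the 7 with 427 bp and the lowest upstream peak, with a fold enrichment of 1.49 (1.28 to 1.72) and a pileup of 179 over the floor background of 120.1. Its summit was 548 bp upstream of LYS9, in the 1391 bp gap next to BRE5, and no other list had a peak within 7005 bp. LYS21 and LYS9 had the same background, so their fold enrichments differed through the pileup alone, 307 against 179 fragments, by a ratio of 1.71. LYS1 had no peak in any list. The nearest in the cdc7-7 GAL-FLAG-CSE4 list began 1877 bp upstream, with its summit between IRC24 and HYR1 and a fold enrichment of 1.84, and the other lists had none within 31701 bp.

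LYS14 (YDR034C), the gene of the pathway activator, is at IV, 509737 to 512109 on the minus strand. Its peak in the cdc7-7 GAL-FLAG-CSE4 list ran from 511908 to 512721, 814 bp, with the summit at 512349, 240 bp upstream of the start codon. The fold enrichment was 1.63 (1.45 to 1.83), from a pileup of 286 over a background of 174.8, the highest background of the 7. LYS14 thus ranked 193 by pileup but 679 by fold. Both endogenous lists held a peak past the 3′ end of LYS14 with its summit inside the convergent gene MRH1, 1.38 in wild type and 1.56 in cdc7-7, which began 586 and 525 bp beyond LYS14 and so did not count. LYS14, LYS2 and LYS21 had pileups of 286, 290 and 307, with backgrounds of 174.8, 149 and 120.1. These pileups lie close together, so by the ratio itself the fold enrichment rose in the order in which the background fell. The other genes did not follow that order. LYS12, at a background of 141.5, had 1.87, under the 1.94 of LYS2, and LYS9, at 120.1, had 1.49.

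**Figure D2:**
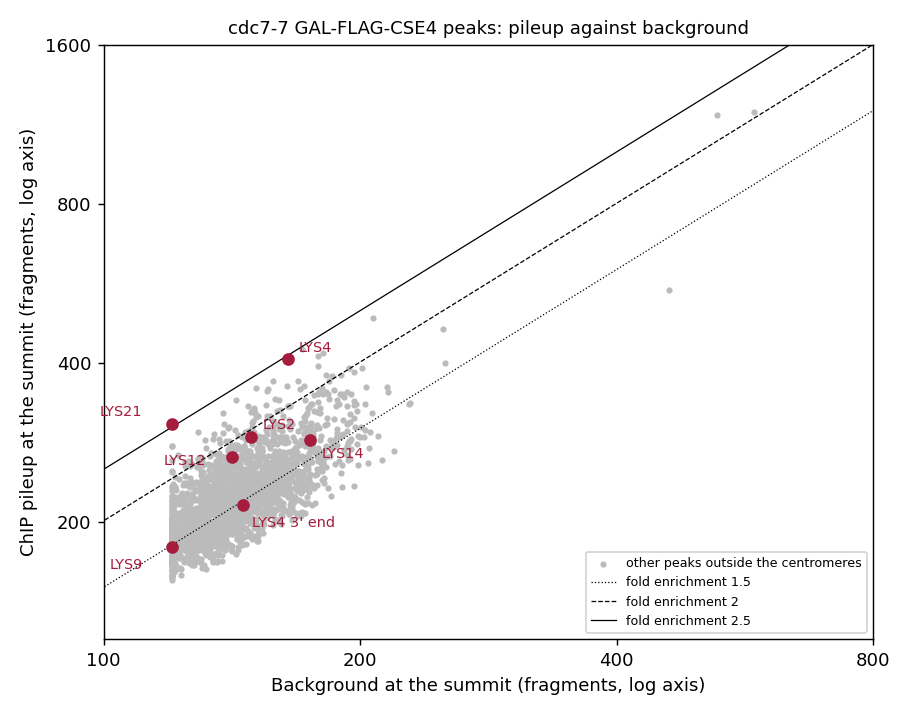
ChIP pileup against local background, both in fragments at the summit on log axes, for the peaks outside the centromeres in the cdc7-7 GAL-FLAG-CSE4 list, with the lysine gene peaks in red and lines of equal fold enrichment at 1.5, 2 and 2.5. LYS21 and LYS9 sit on the left edge, at the floor background of 120.1 fragments, and LYS21 and LYS4 sit near the 2.5 line above nearly all other peaks.

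Across the pathway, the best peaks of the 6 genes ranged in fold enrichment from 1.49 (LYS9) to 2.54 (LYS21), where the median best peak of all genes with a peak was 1.55. The values of LYS21 and LYS4 are those the set was chosen by. Of the other 4 genes, LYS2, LYS12 and LYS14 were above 1.55 and LYS9 was below it. In order, LYS21, LYS4, LYS2, LYS12, LYS14 and LYS9 had 2.54, 2.47, 1.94, 1.87, 1.63 and 1.49. The intervals of neighbors in this order overlapped among LYS2, LYS12, LYS14 and LYS9, so the order of neighbors is not fixed by the counts. The interval of LYS2 began at 1.723, just above the end of that of LYS9 at 1.719. The step from LYS4 to LYS2 separates the genes the set was chosen by from the others, and nothing is read from it. The 15 centromere peaks of the same list had a median of 2.55, from 1.89 to 5.75. LYS21 and LYS4 each exceeded 6 of those 15, LYS2 exceeded 1, and LYS12, LYS14 and LYS9 exceeded none. The study reports that centromere peaks stood out less from the background in this strain. In the wild type GAL-FLAG-CSE4 list, the centromere peaks of chromosomes IV, XIV and IX had 12.3, 8.63 and 3.13. The place of LYS21 and LYS4 among the 15 is therefore only a description.

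**Figure D3:**
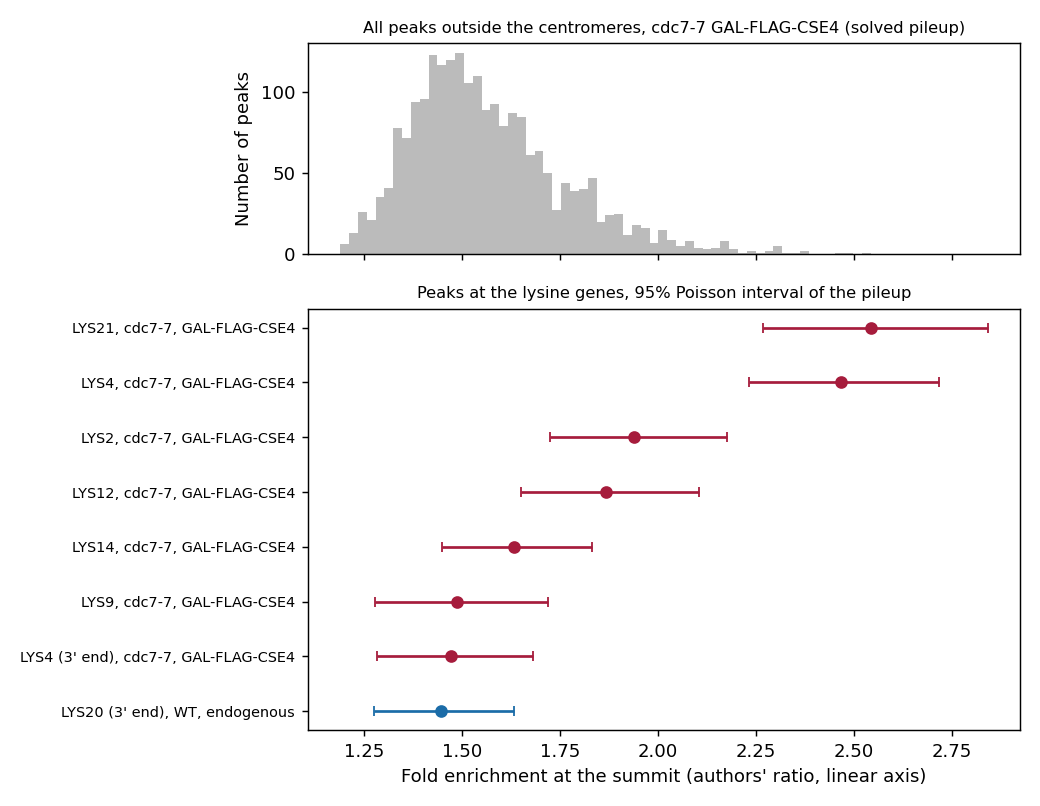
Top, the number of peaks outside the centromeres by fold enrichment in the cdc7-7 GAL-FLAG-CSE4 list. Bottom, the fold enrichment of each peak at the lysine genes on the same linear axis, red for the cdc7-7 GAL-FLAG-CSE4 list and blue for the wild type endogenous list, where bars are 95% Poisson intervals of the pileup. LYS21 (2.54) and LYS4 (2.47) lie in the far right tail of the histogram and LYS9 (1.49) near its centre.

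The peaks next in rank to LYS21 and LYS4 were at genes of unrelated function. MIT1, a regulator of pseudohyphal growth, stood between them with 2.48 (pileup 425, background 170.8, summit 442 bp upstream). SSO2, a t-SNARE, and CNL1 followed with 2.37 each, with summits 117 bp and 129 bp upstream. At rank 1 to 5 the pileup ranged from 307 at LYS21 to 425 at MIT1, so LYS21 had the fewest fragments and the lowest background of the group. The MIT1 peak lay between MIT1 and YEL008W, and its near edge was 1033 bp upstream of GCN4.

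The libraries differed in depth, which bears on where a list could show a peak. The lists of wild type endogenous, cdc7-7 endogenous, wild type GAL-FLAG-CSE4 and cdc7-7 GAL-FLAG-CSE4 held 811, 183, 46 and 2203 peaks, of which 16, 16, 16 and 15 were at centromeres, the known sites of Cse4. The median background at the centromeres was 200.3 fragments in the wild type endogenous list, 76.2 in cdc7-7 endogenous, 37.9 for wild type GAL-FLAG-CSE4 and 145.6 when cdc7-7 carried GAL-FLAG-CSE4. At the median background of each list, the weakest p listed corresponds to a fold enrichment of 1.21, 1.40, 1.64 and 1.22 in that order. A gene without a peak has no value in that list, so its enrichment there is not known to be absent. The genotypes of the strains at the LYS loci are not given in the sources used here, so it is unknown whether any strain lacks sequence at a LYS gene. When the pileups and backgrounds of the 7 cdc7-7 GAL-FLAG-CSE4 peaks were scaled to the depth of wild type GAL-FLAG-CSE4, 5 of 7 still passed that list's weakest -log10 p of 4.09. LYS4 had 15.5, LYS21 12.6, LYS2 7.09, LYS12 5.85 and LYS14 4.42, while the 3′ peak of LYS4 had 2.45 and LYS9 2.29. By this scaling LYS21, LYS4, LYS2, LYS12 and LYS14 were above the weakest p of the wild type GAL-FLAG-CSE4 list, and none was listed there. The scaling leaves out the counting error of the shallower library, and LYS14, at 4.42, was close to 4.09. A site of this enrichment could thus be missed, and no absence is read from the list. LYS21 and LYS4 were chosen for their fold enrichment. The share of all peaks of the list that pass this scaling is not given here, so nothing is read from the count of 5. For LYS9 the comparison of these 2 strains was not detectable at this depth. All 7 passed at the depth of both endogenous libraries, with LYS21 at 24.5 for cdc7-7 and 62.2 for wild type, whose weakest listed values were 3.29 and 2.71. By this background the wild type endogenous library was the deepest, and it listed no peak at the 7 sites. The share of all peaks that pass at these depths is not given here either, so nothing is read from the 7. In the other direction, the LYS20 3′ peak of the wild type endogenous list passed at the depth of cdc7-7 endogenous (3.60) but not at that of wild type GAL-FLAG-CSE4 (2.17). The list of cdc7-7 endogenous held no peak there. The 3.60 was close to that list's weakest value of 3.29, and the scaling leaves out counting error, so nothing is read from this.

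**Figure D4:**
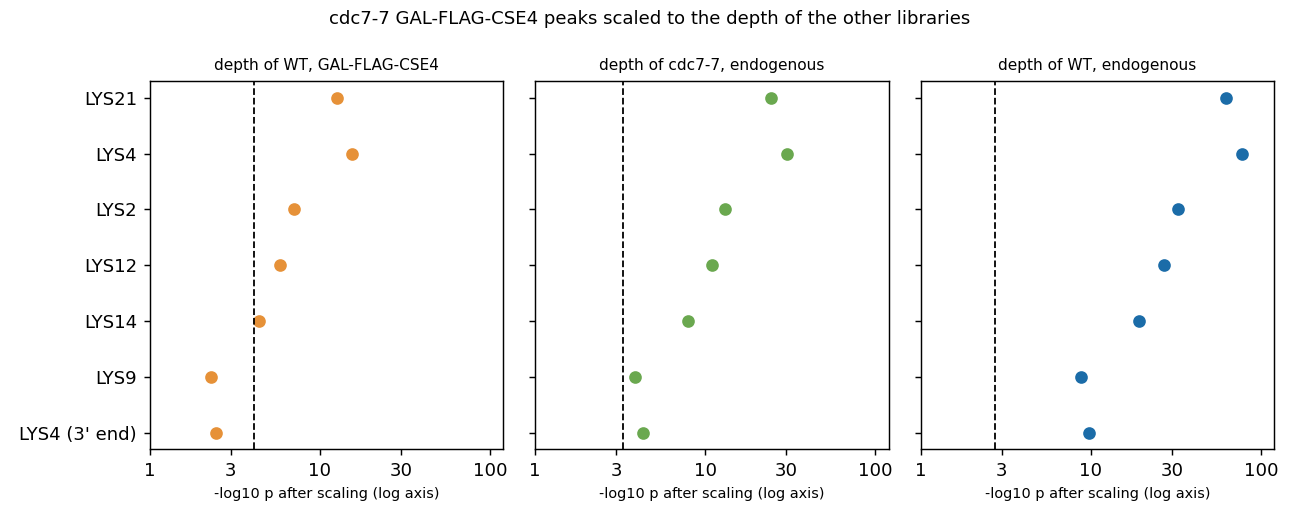
The -log10 p (log axis) of the 7 cdc7-7 GAL-FLAG-CSE4 peaks at the lysine genes after scaling pileup and background to the depth of each other library, 1 panel a library. Dashed lines are the weakest -log10 p in that library's own list (4.09, 3.29 and 2.71). In the left panel LYS9 and the 3′ peak of LYS4 fall left of the line, and in the other panels all points lie to the right of it.

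The places of the upstream summits are set here beside those of all genes. Among the 2434 genes with a summit in the 1000 bp upstream, the median summit was 279 bp before the start codon, with quartiles at 505 and 133 bp. The summits of LYS14, LYS21 and LYS2, at 240, 279 and 304 bp, were inside that range, and those of LYS9 and LYS4, at 548 and 571 bp, were beyond its far quartile. The median best fold enrichment of those genes was 1.54, with quartiles of 1.44 and 1.69. LYS2 was above the upper quartile, and LYS14 and LYS9 were within the quartiles. LYS21 and LYS4 were also above the upper quartile, but they were chosen for these values, so nothing is read from their place. Genes with long gaps had a summit within the 1000 bp upstream more often, although at a short gap such a summit can lie beyond the next gene. With all genes split into 3 classes of equal size by gap, 47.8% of the longest class had an upstream summit, against 40.3% of the middle and 33.8% of the shortest. The lysine genes had long gaps: 5 were in the longest class, of which LYS21, LYS4, LYS9 and LYS14 had an upstream summit and LYS20 did not. LYS2 and LYS12 were in the middle class, LYS2 with a summit, and LYS1 in the shortest, without one. When the whole gap was counted instead of 1000 bp, LYS20 was added and 6 of 8 genes had a summit in their own gap, against 34.6% of all genes. This alternative was chosen after seeing the data. LYS21 and LYS4 were chosen for such a peak, and the 34.6% is not matched for gap length, so nothing is read from the 6 of 8.

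The base composition of the summits differed among the genes. In the 121 bases around the summit, A+T was 49.6% at LYS4 and 52.9% at LYS21, where 7.45% and 14.4% of the 2188 summits were at or below that value. It was 56.2% at LYS14, 61.2% at LYS9, 62.0% at LYS2, 66.1% at the 3′ peak of LYS4 and 66.9% at LYS12. The median of all summits was 60.3%, with quartiles of 56.2% and 63.6%, and the genome had 61.7%. The 2 peaks with the highest fold enrichment, those the set was chosen by, thus had the lowest A+T of the 7. The rest did not follow that order, with LYS12 (fold enrichment 1.87) at 66.9% and LYS14 (1.63) at 56.2%. A relation of A+T to fold enrichment was not tested.

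Matches to the Lys14 motif TCCNNNGGA, which reads the same on both strands, were found in the 1000 bp upstream of 6 of the 8 genes and of 13.6% of all genes. Within 500 bp they were found at 5 of 8 and at 5.90% of all genes. The narrower forms TCCANCGGA, TCCANTGGA, TCCGNCGGA and TCCGNTGGA, chosen after seeing the data, occurred within 1000 bp at 5 of 8 genes and 3.88% of all genes. The pathway was known for these sites, so the counts are a description. The sites in the gaps of LYS21, LYS20, LYS9 and LYS1 are shown with 10 bases on each side, on the strand of the gene and with the motif in capitals, because LYS21 has a summit beside its site and LYS20 and LYS1 have none.
LYS21, chrIV:227063-227071, plus strand: gagttgaaatTCCGCTGGAaatcgtcacc
LYS20, chrIV:132863-132871, plus strand: tgcgtcaaatTCCGCCGGAatattgcgta
LYS9, chrXIV:715605-715613, minus strand: gaatcgaaatTCCGTTGGAaaaattcgct
LYS1, chrIX:420924-420932, minus strand: atttttttttTCCAGCGGAatttggaatt

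The peaks and the motifs did not fall together throughout. At LYS21 the site was 330 bp upstream of the start codon and its centre 47 bp from the summit. At LYS14 a site of the wide form was 216 bp upstream and 28 bp from the summit, and a TGANTCA match lay 7 bp from the summit. At LYS9 the sites, 225 and 163 bp upstream, were 327 and 389 bp from the summit. LYS20 (574 bp upstream) and LYS1 (196 bp upstream) had a site and no summit within 1000 bp, whereas LYS4 and LYS2 had summits and no site. LYS12 had a wide-form site 182 bp upstream, in a gap without a summit, another 817 bp upstream and a narrow-form site 999 bp upstream, 229 bp from the summit of its peak. LYS21 had a further site 941 bp upstream, inside CDC53 and 658 bp from the summit. The Gcn4 motif TGANTCA, also the same on both strands, was found within 1000 bp upstream at LYS2, LYS1 and LYS14, 3 of 8, against 22.9% of all genes. A match is only a run of letters, and binding of either factor was not measured.

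The pathway extends beyond these genes. Of 6 other genes of lysine metabolism and its control, 3 held a peak in the cdc7-7 GAL-FLAG-CSE4 list, a share near the 55.9% of all genes. ARO9, an aromatic aminotransferase that also acts on α-aminoadipate, had 1.51, with a summit 513 bp upstream and nearer to SPL2. LYP1, the lysine permease, had 1.80, with a summit 611 bp upstream inside BSC4, and carries a TCCNNNGGA site 395 bp from that summit. GCN4, the activator of amino acid genes, had 1.50, with its summit 723 bp into the gene. ARO8, LYS5 (which activates Lys2) and MKS1 had no peak in any list, although MKS1 also carries a TCCNNNGGA site, 464 bp upstream. GCN4 was the single gene of the pathway with a peak in all 4 lists, with 2.13 in wild type endogenous, 1.98 in cdc7-7 endogenous, 1.95 for wild type GAL-FLAG-CSE4 and 1.50 when cdc7-7 carried GAL-FLAG-CSE4. LYP1 also had a peak of 1.44 in the wild type endogenous list, 1480 bp into the gene.

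Other amino acid pathways gave a measure of how common such peaks were. In the cdc7-7 GAL-FLAG-CSE4 list, a peak was held by 7 of 9 arginine genes, 2 of 7 histidine genes and 7 of 11 leucine, isoleucine and valine genes. Beside these stand 55.9% of all genes and 6 of 8 lysine genes, of which LYS21 and LYS4 were chosen for their peaks. The best peaks ranged from 1.29 (ARG2) to 1.66 (ARG56) for arginine, from 1.64 (HIS1) to 1.87 (HIS4) for histidine and from 1.34 (BAT1) to 2.06 (LEU2) for the branched-chain genes. The top of the lysine range, 2.54, was thus above all of them, and was also what the lysine genes were chosen for. LEU2 is a common marker gene in yeast strains, and its background was 580.0 fragments, more than that at any lysine gene. In the wild type endogenous list, 3 of 9 arginine, 1 of 7 histidine and 7 of 11 branched-chain genes held a peak, beside 20.2% of all genes. In cdc7-7 endogenous 3 of 11 branched-chain genes and no arginine or histidine gene did, beside 4.75% of all genes, and in wild type GAL-FLAG-CSE4 LEU2 did, beside 1.05%.

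**Figure D5:**
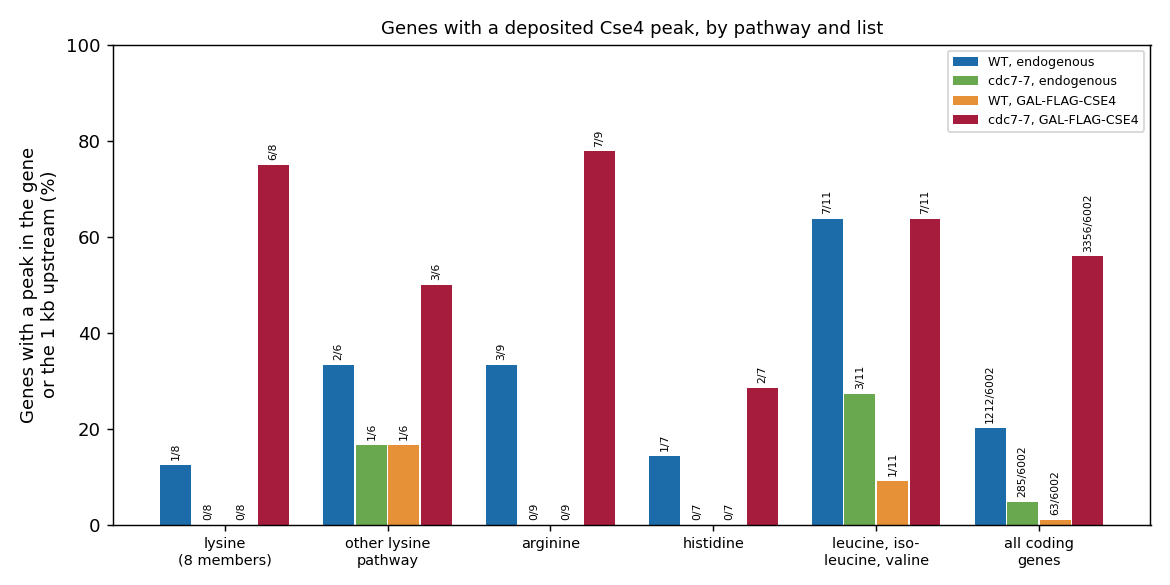
Share of genes (in percent) with a peak in the gene or the 1000 bp upstream, by pathway and list, with the counts above the bars and all 6002 coding genes at the right. In the cdc7-7 GAL-FLAG-CSE4 list the lysine genes (6 of 8) stand beside the arginine genes (7 of 9) and the 55.9% of all genes.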

How the data were processed

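Cse4 ChIP-seq was analysed in 4 strains, each with 1 ChIP and 1 input library. Samples were grouped by their titles. The study's methods state that the authors aligned paired reads to S288C (R64) with Bowtie 1.0.0, keeping reads with 1 reportable position, removed duplicates with SAMtools, down sampled the inputs and ran MACS in paired-end mode. By the library labels and the names of the lists, each ChIP library was set against the input of the same strain. Each deposited list gives positions, the fold enrichment at the summit (a ratio to the local background), and -log10 p and -log10 q values made by the authors. Read totals are not in the lists, so depth is given as the background. The psh1Δ comparison and the coverage tracks were not analysed here.

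Summit pileups and backgrounds were recovered from the fold enrichment, which MACS computes after adding a pseudocount of 1 to each, and from the Poisson -log10 p, with a whole-number pileup. Solutions were accepted if the error of the best integer was under 0.1 times that of the runner-up, which left out 1 peak in each list and 2 in cdc7-7 GAL-FLAG-CSE4. On simulated peaks 100% of planted pileups were recovered in each list. Exact 95% Poisson intervals of the pileup were carried to the fold enrichment, and they cover counting error only. For depth, pileup and background were multiplied by the ratio of the median centromere backgrounds, with no draws, and compared with the weakest p of the other list. This is not a new peak calling.

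Genes, 6002 in all, and sequences are from the RefSeq R64 reference. A gene held a peak where at least 1 bp of the peak lay in the gene or within 1000 bp upstream. Distances count from the start codon. Named were the 8 genes, the other lysine pathway genes, the genes beside each upstream gap, and the peaks ranked next to LYS21 and LYS4, each by the nearest start codon. The other genes named lie beside a summit described, or mark the ends of a range. The members, lists and motifs were chosen with earlier results of these data known. 1 gene of the list of other lysine pathway genes is not reported here. With 1 library a strain no test was run. As alternatives, the values were recomputed with a -log10 q of at least 5, a fold enrichment of at least 2, windows of 500 and 250 bp, the upstream window only, at least 50% of the peak inside, the summit in place of the peak, the nearest start codon only, the whole gap (added after seeing the data), a fold enrichment with no pseudocount or divided by the list's median, and other depth ratios and limits. Python 3.11.15, numpy 2.4.6, scipy 1.17.1 and matplotlib 3.10.9 were used.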

Additional observations from a re-analysis of the deposited data

Results flagged for a closer look

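The count of lysine genes with a peak moved in opposite directions between the strains at the 2 levels of Cse4. With endogenous Cse4, cdc7-7 minus wild type was -1 (0 against 1 of the 8 genes), and with GAL-FLAG-CSE4 it was 6 (6 against 0). The opposite directions called attention to it, and the difference was not tested, since each strain has 1 library. The endogenous value rests on the LYS20 3′ peak alone, which lies mostly outside the gene. The share of all coding genes with a peak moved the same way, from 20.2% to 4.75% with endogenous Cse4 and from 1.05% to 55.9% with GAL-FLAG-CSE4, so the opposite directions belong to the whole lists and are not particular to the lysine genes. The median background at the centromeres moved with these counts, from 200.3 to 76.2 fragments with endogenous Cse4 and from 37.9 to 145.6 with GAL-FLAG-CSE4, wild type first. Its part in the counts over all genes was not tested. The scaling of depth covered only the 7 lysine gene peaks. Of these, 5 stayed above the limit of the wild type GAL-FLAG-CSE4 list, the peaks of LYS21 and LYS4 that the set was chosen by among them.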

How the results depend on the processing

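Of 45 alternatives, 34 left the value within the margin and 11 moved it. In the wild type endogenous list the count of 1 gene (LYS20) fell to 0 at a fold enrichment of 2 or more, with the upstream window only, with at least 50% of the peak inside, and with the summit inside. In the cdc7-7 GAL-FLAG-CSE4 list the count of 6 fell to 2 at a fold enrichment of 2 or more (LYS21 and LYS4), and that of other lysine pathway genes from 3 to 0. Of all genes 2.82% held a peak at that fold enrichment. The count of 6 became 5, without LYS12, with windows of 500 and 250 bp, at least 50% of the peak inside, or the summit inside. That change was taken as within the margin. Of all genes 51.4%, 47.3%, 49.6% and 49.9% held a peak under these settings, in that order, so about as many genes of any kind were called. The 5 genes with an upstream summit became 2 at that fold enrichment, 3 within 500 bp (LYS21, LYS2 and LYS14) and 1 within 250 bp (LYS14). They became 4 when each summit went to the nearest start codon, as LYS4 passed to RTN1. The shares of all genes are not given for these counts of upstream summits, so nothing is read from them. Relative to the median peak outside the centromeres, the fold enrichment was 1.66 at LYS21 and 1.61 at LYS4. The counts in the lists of cdc7-7 endogenous and wild type GAL-FLAG-CSE4 were 0 under each alternative run. Each of those alternatives was stricter than the main rule, so a count of 0 could only stay 0. They are among the 34, and nothing is read from them. No paired analysis was possible because each strain has 1 ChIP library and no test was run, and for the same reason no library could be left out. A site under the limit of a list has no value there, so absence cannot be read from a missing peak.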
